A study of Rattus norvegicus with 11 samples.

Results

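The sarcoplasmic reticulum calcium cycling genes are the calcium pump Atp2a2, its inhibitor phospholamban (Pln), the calcium release channel Ryr2, the calsequestrins Casq1 and Casq2, and the sodium-calcium exchanger Slc8a1. Their members were all probe sets of a rat expression array whose platform annotation gave 1 of these 6 symbols, and there were 13 of them among 8799 probe sets. Each probe set is a number of short probes against a transcript, read out as 1 value. Atp2a2 had 4 probe sets, Slc8a1 had 5, and the other genes had 1 each. Of the 13, 11 passed a filter on low values and were tested among 5244 probe sets. The other 2, both of Slc8a1, are given by their values only.

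Heart muscle contracts when calcium that enters from outside opens the ryanodine receptor and releases stored calcium from the sarcoplasmic reticulum. Relaxation follows when the SERCA2 pump, encoded by Atp2a2, returns calcium to the store and the exchanger moves calcium out of the cell. Phospholamban holds the pump back until it is phosphorylated, so the ratio of pump to phospholamban is often quoted as a measure of calcium uptake capacity. Calsequestrin binds calcium inside the store, Casq2 in heart muscle and Casq1 chiefly in skeletal muscle.

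The arrays measured total RNA of ventricle from Fischer-344 rats, an inbred strain common in studies of ageing. The old group held 6 arrays from rats of 22 months and the young group held 5 arrays from rats of 4 months. The labels name no other treatment or genotype and do not say that the arrays stem from separate animals, so p-values measure the spread between these arrays, which may be technical. Old was compared with young to ask whether transcripts of these genes differ with age.

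The deposited intensities share 1 overall level on all arrays, so a difference is relative to the other transcripts of that array. The spike-in controls, read from the BioB, BioC, BioD and Cre probe sets, are added transcripts that are not of the rat. The step at which they were added is not given in the sources used here. Their mean log2 level split the arrays into 5 bright and 6 dim ones at the widest gap between neighbours, 1.76, although the next gap was 1.71. Old replicates 3 to 6 and young replicate 4 were bright (11.97 to 15.24), and old replicates 1 and 2 and young replicates 1, 2, 3 and 5 were dim (9.55 to 10.20). This split was known from earlier results of these data. Old replicates 3 and 4 had log2 ratios of the 3' over the 5' GAPDH control of 3.39 and 4.09, against 0.07 to 0.77 in the other 9 arrays. This ratio is commonly read as a sign of RNA integrity. Of 9 markers of ventricular muscle 7 were measured, among them Myh6, Tnni3, Tnnt2 and Myl2. Their summed intensity was 436728 to 606503 in old and 450952 to 595890 in young. The single markers were less alike. Ckm did not overlap, at 8519 to 21510 in old and 23002 to 29941 in young, as for 0.973% of all probe sets tested. Actc1, with the highest medians, read 70828 to 172079 in old and 61882 to 119325 in young. Of the 12 ventricular probe sets 2 had an unadjusted p under 0.05 in limma, and 0 passed. For 3 measured atrial markers, Nppa, Myl4 and Myl7, the sum was 34036 to 230303 in old and 8724 to 68088 in young. Of their 8 probe sets 4 had an unadjusted p under 0.05 in limma, against 7.51% of all probe sets tested, and 0 passed. The part of atrial tissue in the results was not tested. The number of arrays limits the precision.

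No probe set of the calcium cycling genes passed the test between old and young. Of the 11 member probe sets tested, 0 passed an adjusted p of 0.05 in limma with Benjamini-Hochberg adjustment over all probe sets, and 0% of all 5244 did. At an unadjusted p under 0.05 there was 1 member, an Atp2a2 probe set lower in old, against 7.51% of all probe sets tested, of which those lower in old made up 4.12% of all. Arrays of both ages overlapped for all 11, while 0.973% of all probe sets tested had groups that did not overlap. Of the 11, 9 were lower in old and 2 higher, with a median log2 difference of -0.49. Over all 5244 probe sets tested, 2653 were lower and the median was -0.01. In a fit blocked by spike-in class, 7 of the 11 were lower and 4 higher, with a median of -0.26. In that fit 2646 of all 5244 were lower, with a median of -0.008. Probe sets of 1 gene share a target and are not independent. In bulk tissue, fewer cells of a type and less RNA per cell cannot be told apart.

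**Figure D1:**
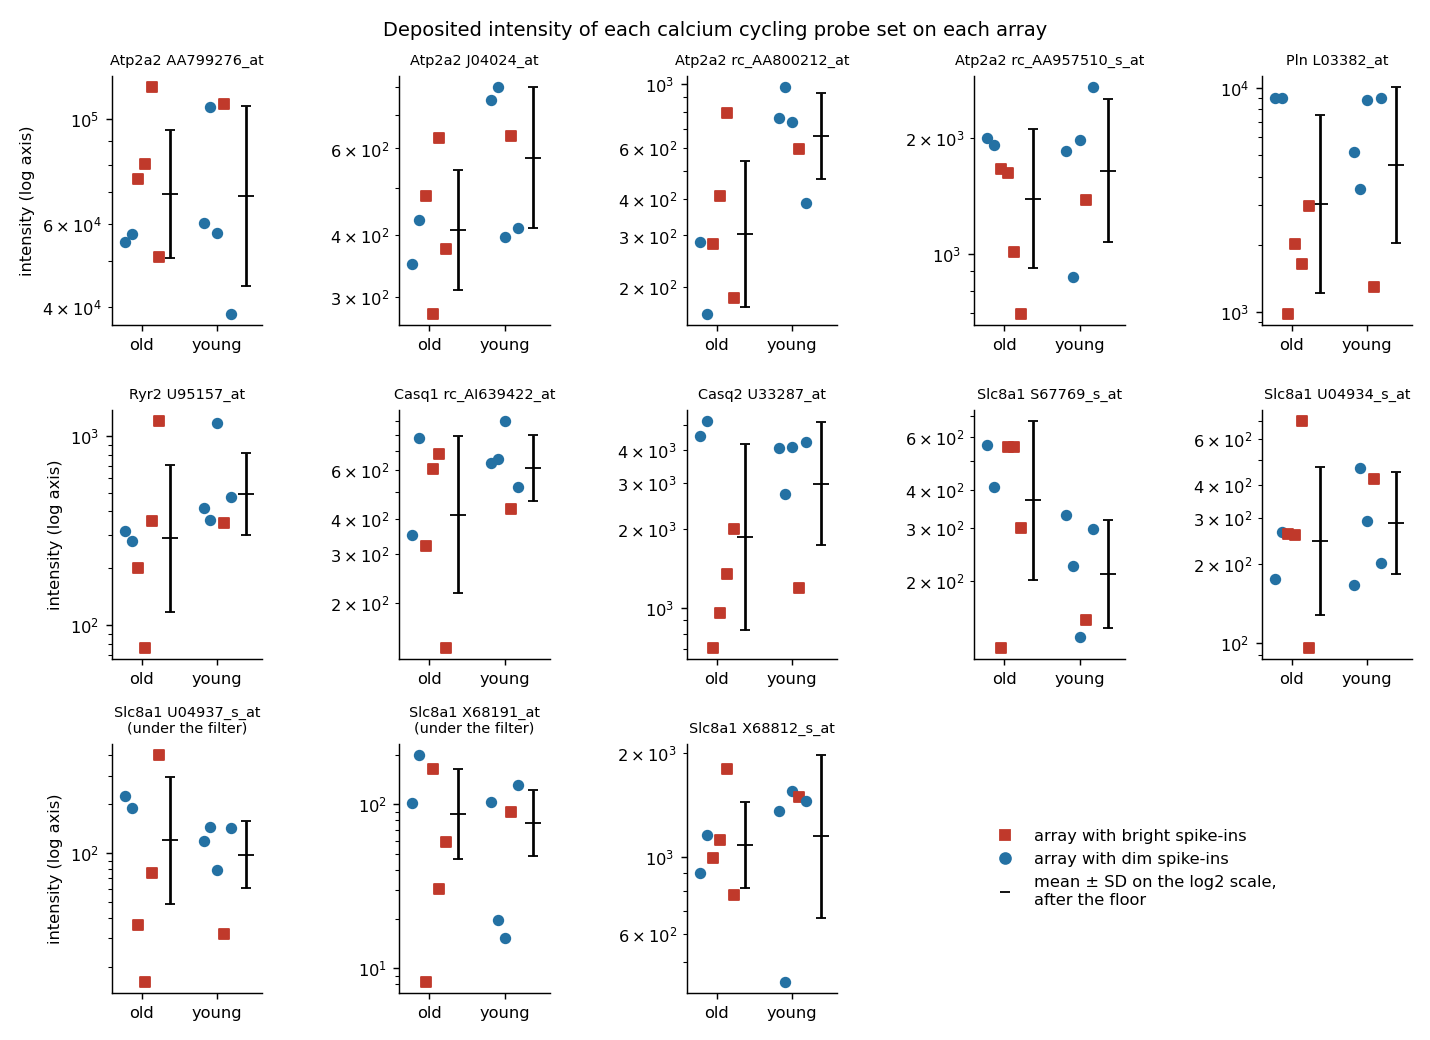
Intensity as deposited (log axis) of the 13 member probe sets on the old and young arrays, 1 point per array, with red squares for arrays with bright and blue circles for arrays with dim spike-in controls; the black bars are the mean ± SD on the log2 scale, after raising low values to the floor. For Pln and Casq2 the red squares lie below all blue circles in both age groups, and in every panel old and young overlap.

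The pump gene Atp2a2 gave no common answer across its 4 probe sets. The probe set with the highest mean, AA799276_at, had a lowest intensity of 51059, a median of 65878 and a highest of 117012 in old. Its young arrays, replicates 1 to 5, read 60111, 106253, 57416, 107963 and 38601. The lowest array was young and the highest old, and the groups overlapped between 51059 and 107963. Its log2 mean was 16.08 ± 0.45 (SD, n = 6) in old, and in young it was 16.07 ± 0.64 (SD, n = 5). The difference was 0.02 ± 0.36 (SE), with a 95% interval from limma of -0.74 to 0.77, which leaves room for a change in either direction. It was lower in old within the dim arrays (-0.13) and within the bright arrays (-0.48).

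Probe set rc_AA800212_at of the same gene had the largest difference of the 11, in the direction of lower values in old. Its old intensities had a lowest value of 161, a median of 283 and a highest of 789.9, and the young arrays read 759, 973, 735, 596 and 388. Old replicates 1, 2, 3 and 6, at 285 or less, lay below every young array, and old replicate 5 lay above all young arrays but replicate 2. The log2 difference was -1.13 ± 0.47 (SE), with a limma p of 0.0262 before and 0.572 after adjustment over all probe sets. Below the young mean lay 5 of 6 old arrays. It was -1.66 within the dim arrays and -0.73 within the bright ones. This member had the smallest p of the 11, and it did not pass.

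Probe set J04024_at read 278 at the lowest, 403 at the median and 629 at the highest in old, and 751, 798, 397, 634.5 and 415 in young. The low young arrays, replicates 3 and 5, sat near the old median. Its difference was -0.49 ± 0.40 (SE), with the 95% interval from -1.32 to 0.35. Probe set rc_AA957510_s_at, whose _s marks probes that can read more than 1 transcript, read 697, 1641 and 1994 as the lowest, median and highest old values, and 1853.5, 870.5, 1977, 1379.7 and 2710.2 in young. It differed by -0.24 ± 0.37 (SE), and by 0.19 within the dim arrays. Neither passed.

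No pair of Atp2a2 probe sets passed a test of their course over the arrays. AA799276_at, J04024_at and rc_AA800212_at had r of 0.52 to 0.63 with each other, and each pair with rc_AA957510_s_at had r below 0. Over all 6 pairs Pearson's r ran from -0.53 to 0.63 over 11 arrays, and 0 passed in a family of 16 pairs of probe sets of 1 gene. The highest pair, J04024_at with rc_AA800212_at, had r = 0.63 (permutation p = 0.0406, adjusted p = 0.304) and rho = 0.56 (permutation p = 0.0751, adjusted p = 0.309). Its r fell to 0.40 without young replicates 1 and 2, the arrays farthest from the median of J04024_at. AA799276_at ran against rc_AA957510_s_at, with r = -0.53 (permutation p = 0.0958, adjusted p = 0.304) and rho = -0.55 (permutation p = 0.0796, adjusted p = 0.309). Without old replicate 5 and young replicate 4 this r was -0.46.

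Within the 6 dim arrays the opposite course of these probe sets was closer. There AA799276_at and rc_AA957510_s_at had r = -0.99 (exact permutation p = 0.00278, adjusted p = 0.0354 over the 16 pairs and that of Pln with Casq2) and rho = -0.94 (exact permutation p = 0.0167, adjusted p = 0.142). The pair of Pln with Casq2, chosen for its likeness in these data, shared this adjusted p for r and lowered it. Without young replicates 2 and 5 the r of the Atp2a2 pair was -0.86. Young replicate 2 held the highest AA799276_at value of the dim arrays and the lowest rc_AA957510_s_at value, and young replicate 5 held the reverse. The dim arrays were examined on their own after the values had been seen.

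The age difference itself was also compared between probe sets of Atp2a2, as the log2 difference of 2 probe sets on each array. The difference of AA799276_at from rc_AA800212_at was 7.84 ± 0.45 (SD, n = 6) in old, against 6.70 ± 0.49 (SD, n = 5) in young. Each of the 6 old arrays exceeded the young mean, by 1.14 on average (exact two-sided permutation p = 0.0108, adjusted p = 0.0974 over 9 pairs of tested probe sets of 1 gene). This gap was 1.53 in the dim arrays and 0.25 in the bright ones. None of the 9 pairs passed after adjustment, and this comparison was added after the values had been seen.

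**Figure D2:**
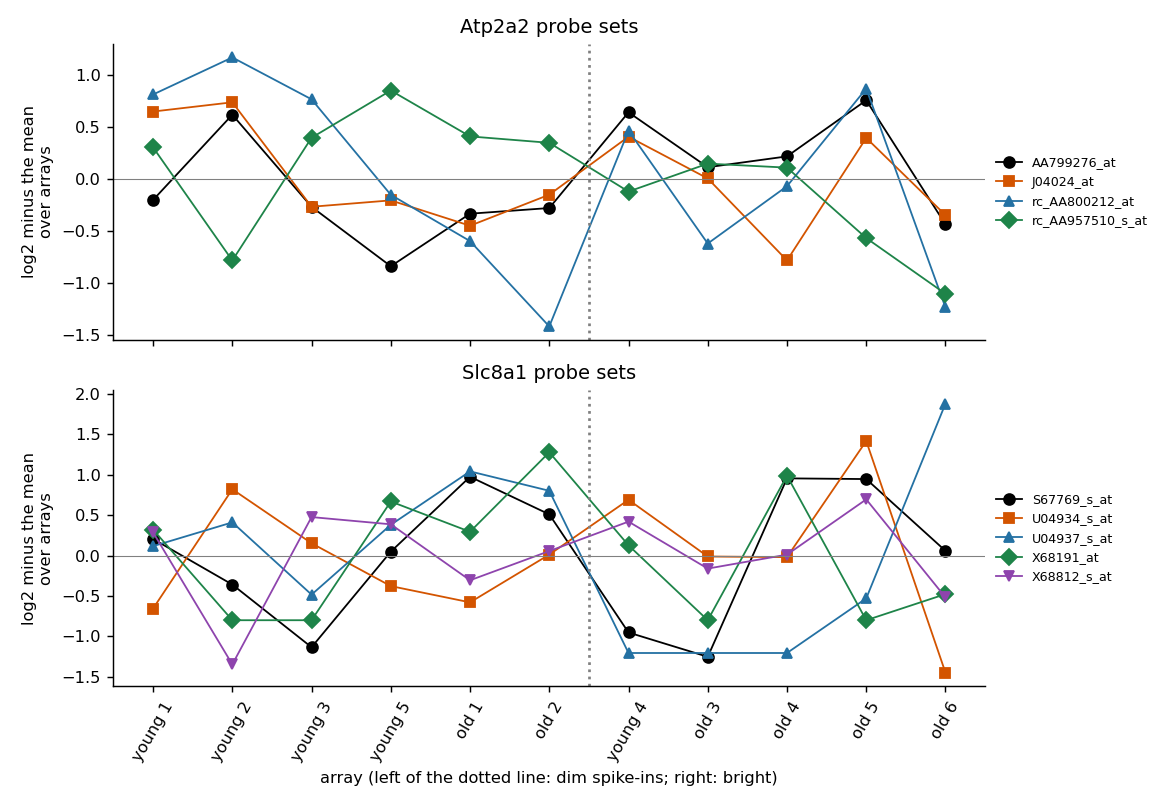
Log2 intensity of each Atp2a2 (top) and Slc8a1 (bottom) probe set minus its own mean over the 11 arrays, with dim arrays left and bright arrays right of the dotted line. Among the dim arrays the black and green Atp2a2 lines (AA799276_at and rc_AA957510_s_at) mirror each other (r = -0.99), and the Slc8a1 lines cross without a common course.

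Phospholamban, the inhibitor of the pump, and Casq2, the calsequestrin of heart muscle, are described together, since Casq2 was 1 of the 3 genes most like Pln over the arrays. For that reason the 250 bases before the RefSeq start of each are shown, from the RefSeq table of build GRCr8, in which all 6 members were found. Capitals mark matches, on either strand, to the E-box CANNTG, the GATA sequence TGATAA and the MEF2 motif, and no marked matches overlap.
Pln, chr20:33172244-33172493, + strand: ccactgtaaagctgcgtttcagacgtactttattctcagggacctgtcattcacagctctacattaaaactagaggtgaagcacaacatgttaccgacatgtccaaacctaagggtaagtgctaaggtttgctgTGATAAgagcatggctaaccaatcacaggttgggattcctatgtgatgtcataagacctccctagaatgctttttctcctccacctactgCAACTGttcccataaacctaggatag
Casq2, chr2:192214306-192214555, + strand: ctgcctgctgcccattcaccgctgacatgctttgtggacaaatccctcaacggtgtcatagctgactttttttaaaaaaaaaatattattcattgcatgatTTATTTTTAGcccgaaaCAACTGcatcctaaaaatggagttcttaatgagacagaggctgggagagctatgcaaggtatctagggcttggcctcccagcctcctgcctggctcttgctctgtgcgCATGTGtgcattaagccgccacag
The Pln window held 1 E-box match and 1 GATA match, and the Casq2 window held 2 E-box matches and 1 MEF2 match. Over 33469 promoter windows of the same length, 65.5% held an E-box match, 7.97% the GATA sequence and 2.96% a MEF2 match. A match is a description of these letters only.

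Pln (L03382_at) read 9010.2 and 8985 in old replicates 1 and 2, and 983, 2013, 1633 and 2978 in old replicates 3 to 6. The young arrays, replicates 1 to 5, read 5193, 3537, 8815, 1295 and 8975. The 5 bright arrays were the 5 lowest, from 983 to 2978, and the 6 dim arrays lay from 3537 to 9010.2, with old and young mixed in both. The log2 mean was 11.57 ± 1.32 (SD, n = 6) in old, against 12.14 ± 1.15 (SD, n = 5) in young. The difference of -0.57 ± 0.57 (SE) had an adjusted p of 0.837 in limma. Without old replicates 3 and 4, whose GAPDH ratio was high, it was -0.020, without old replicate 3 alone -0.25 and without young replicate 4 alone -1.03. Its direction turned once the spike-in class entered the fit, to 0.51 ± 0.37 (SE) with the class as a block. It was 0.54 ± 0.40 (SE) within the dim arrays, which hold 2 old arrays, and 0.44 within the bright arrays, where 1 array is young.

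Casq2 (U33287_at) gave the same picture. It read 4549 and 5175 in old replicates 1 and 2, and 708, 962, 1356 and 2004 in old replicates 3 to 6. The young arrays read 4084, 2723, 4129.7, 1201 and 4319, with the bright young replicate 4 the lowest. Again every bright array (708 to 2004) lay below every dim one (2723 to 5175). The difference was -0.67 ± 0.49 (SE, adjusted p = 0.769 in limma) over all arrays, and 0.22 ± 0.35 (SE) in the fit blocked by class. In the dim arrays it was 0.37 ± 0.30 (SE), and within the bright arrays -0.042. It was -0.079 without old replicates 3 and 4, -0.39 without old replicate 3 alone and -1.0 without young replicate 4 alone.

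Of the 11 member probe sets tested, 2, those of Pln and Casq2, were lower in all bright than in all dim arrays, against 2.06% of all probe sets tested. The classes separated in either direction for 3.62%. The log2 level of Pln was 10.69 ± 0.61 (SD, n = 5) in bright and 12.77 ± 0.58 (SD, n = 6) in dim arrays, and that of Casq2 was 10.20 ± 0.56 and 12.00 ± 0.31. The high GAPDH ratios of old replicates 3 and 4 fell among the bright arrays. The other bright arrays, old replicates 5 and 6 and young replicate 4, had GAPDH log2 ratios of 0.77, 0.61 and 0.75. The part of RNA integrity in these levels was not tested. The classes were spread unequally over age, with 4 of 6 old and 1 of 5 young arrays bright. The part of the spike-in level in these differences was not tested beyond the fits blocked by class and the values within each class.

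**Figure D3:**
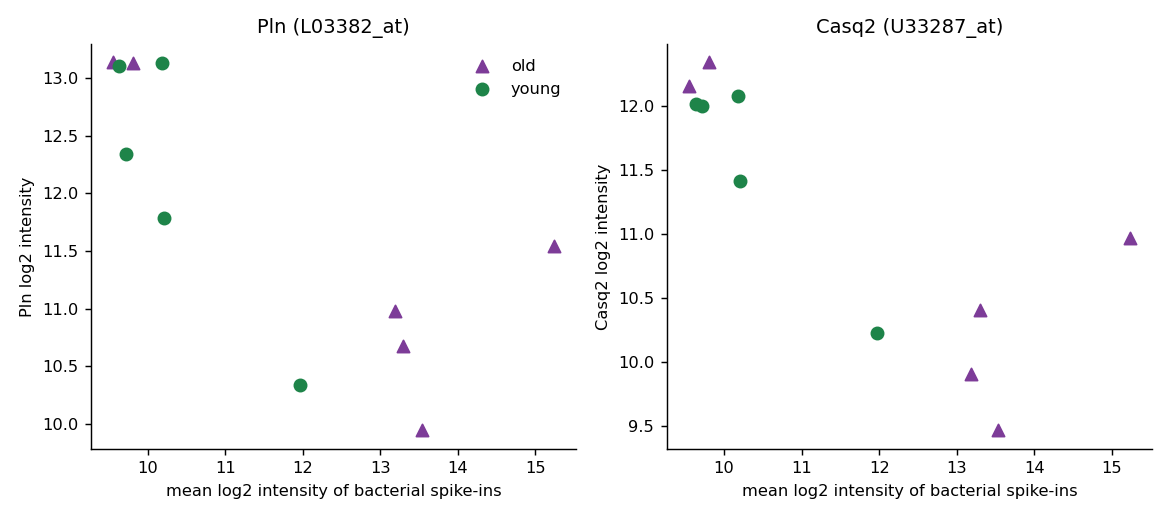
Log2 intensity of Pln (left) and Casq2 (right) against the mean log2 intensity of the spike-in controls, 1 point per array, with purple triangles for old and green circles for young. The 6 arrays with spike-ins at 10.20 or less lie highest for both genes, in old and young alike, and the 5 with spike-ins at 11.97 or more lie lowest.

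Within the 6 dim arrays Pln and Casq2 had r = 0.88 and rho = 0.94, given as a description because the pair was chosen for its likeness. The r was 0.62 without young replicates 1 and 2. The 5 bright arrays are too few for a correlation. For this pair none is given over both classes, because the classes form separate clusters. The likeness that led to the pair was taken over all 11 arrays and includes this split. The log2 difference of Pln from Casq2 ran from 0.11 to 1.09 over the 11 arrays. It was 0.69 ± 0.31 (SD, n = 6) in old, against 0.60 ± 0.45 (SD, n = 5) in young, and the difference was 0.10 (exact two-sided permutation p = 0.677).

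The ratio of Atp2a2 to Pln, taken per array from the probe set with the highest mean of each gene, differed between old and young by less than the spread of either group. Only its change between arrays can be read, because the levels of different probe sets are not on a common scale. The log2 ratio was 2.61, 2.66, 6.25, 5.32, 6.16 and 4.10 in old replicates 1 to 6. It was 3.53, 4.91, 2.70, 6.38 and 2.10 in young replicates 1 to 5. Old replicates 3, 4 and 5 and young replicate 4 stood highest, and all are bright arrays. The mean was 4.52 ± 1.65 (SD, n = 6) in old, against 3.93 ± 1.73 (SD, n = 5) in young. The difference of 0.59 had an exact two-sided permutation p of 0.548 over the 462 splits of the arrays, which allow a smallest p of 0.00216, with 4 of 6 old arrays above the young mean.

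Within each spike-in class the ratio was lower in old, the opposite of the pooled direction. Among the dim arrays it averaged 2.63 in the 2 old and 3.31 in the 4 young arrays, a difference of -0.68 (exact two-sided permutation p = 0.533). Among the bright arrays it averaged 5.46 in the 4 old arrays and was 6.38 in the 1 young array, a difference of -0.92 with no test. With the class as a block, the difference was -0.77 (exact two-sided permutation p = 0.28 over 75 splits within classes). None of these passed, and the smallest p that the dim arrays alone allow is 0.0667. Leaving out old replicates 3 and 4, in which the GAPDH ratio was high, the difference was -0.043 (exact two-sided permutation p = 0.984).

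The ratio was also taken with the other Atp2a2 probe sets over Pln, 4 ratios in all. With J04024_at the log2 difference between old and young was 0.09, with rc_AA957510_s_at 0.34 and with rc_AA800212_at -0.55. The exact two-sided permutation p was 0.963, 0.621 and 0.602 for these, and the adjusted p over the 4 ratios was 0.828 or more for each. For each of the 4 ratios the difference was negative within the dim arrays, from -2.20 to -0.36, and within the bright arrays, from -1.17 to -0.68. The 4 ratios share the Pln values and are not independent.

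**Figure D4:**
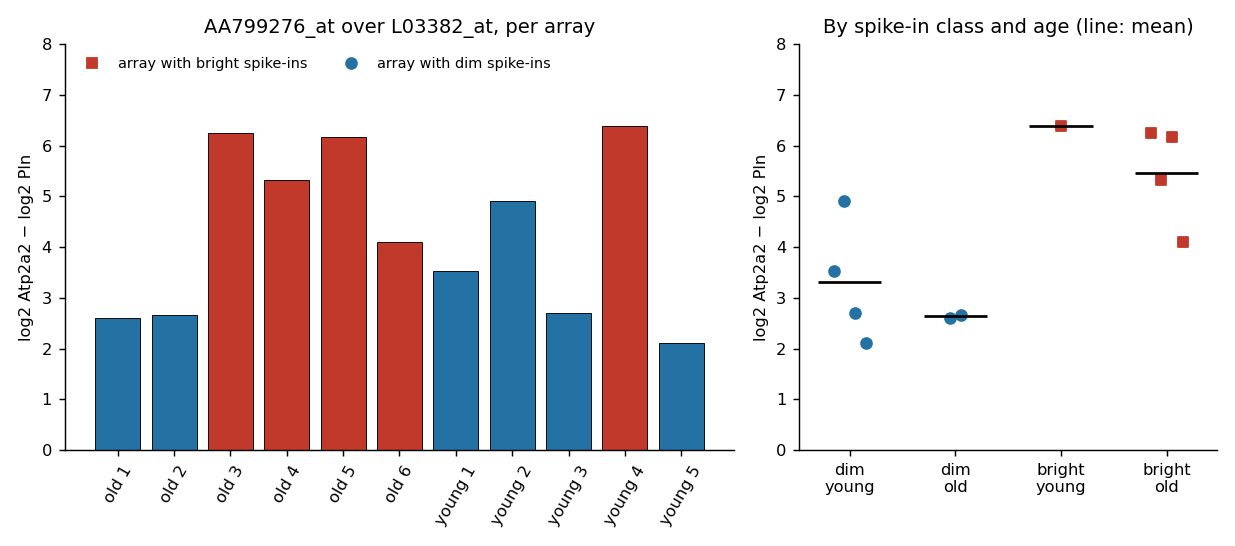
Log2 ratio of Atp2a2 (AA799276_at) to Pln (L03382_at) on each array (left, bars from 0, red for bright and blue for dim spike-ins) and the same values by spike-in class and age (right, the black line is the mean). The bright arrays lie at 4.10 to 6.38 and the dim arrays at 2.10 to 4.91, and in each class the old mean lies below the young mean or the lone young value.

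Ryr2 (U95157_at), the channel that releases calcium from the store, had the next largest difference toward lower values in old. Its old intensities had a lowest value of 76.1, a median of 298 and a highest of 1204, and the young arrays read 418, 361, 1171, 346 and 479.9. Old replicate 6 was the highest of all arrays, and young replicate 3 stood alone at the top of its group. The log2 difference was -0.77 ± 0.59 (SE, adjusted p = 0.776 in limma), with 5 of 6 old arrays below the young mean. It was -0.46 ± 0.63 (SE) without young replicate 3. Within the dim arrays it was -0.86 and within the bright ones -0.28, and it was -0.16 without old replicates 3 and 4, whose GAPDH ratio was high. Leaving out 1 old array moved it to -0.39 without replicate 4 and to -1.18 without replicate 6.

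Casq1 (rc_AI639422_at), the calsequestrin known chiefly from skeletal muscle, lay above the floor on every array. It read 138, 476 and 782 as the lowest, median and highest old values, and 636, 653.5, 897, 434 and 521 in young. Old replicate 6 was the lowest, and old replicates 2, 4 and 5 lay among the young arrays. The difference was -0.56 ± 0.47 (SE, adjusted p = 0.797 in limma), and 4 of 6 old arrays lay below the young mean. It was -0.24 ± 0.38 (SE) without old replicate 6. Of 17 other skeletal muscle markers 13 were measured, and their summed intensity was 5284 to 7874 in old and 3844 to 6405 in young. The part of skeletal muscle in this result was not tested. The fast-muscle troponin Tnni2 was at or under the floor of 47.4 on 9 of 11 arrays, and the fast-muscle pump Atp2a1 read 38.4 to 644 in old and 29.5 to 93.5 in young. Pvalb was at or under the floor on 2 arrays, while Tnnt3 and Acta1 lay above it on every array. Of the 14 probe sets of the skeletal markers, 7 passed the filter on low values. Tnnt3, also a fast-muscle troponin, read 175.1 to 1395 in old and 113.3 to 413 in young. Acta1 read 1132.5 to 5522 in old and 1782 to 4683 in young.

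The exchanger Slc8a1, which moves calcium out of the cell in exchange for sodium, had 5 probe sets that pointed in different directions. All but X68191_at carry the _s that marks probes that can read more than 1 transcript. S67769_s_at had a lowest value of 120.4, a median of 481 and a highest of 564 in old, against 331, 224, 131, 148 and 297 in the young arrays. Old replicates 1, 2, 4 and 5 lay above every young array, while old replicate 3 was the lowest of all. The difference was 0.80 ± 0.52 (SE, adjusted p = 0.74 in limma), with 5 of 6 old arrays above the young mean. It was 1.05 within the dim arrays and 1.13 within the bright arrays.

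The brightest Slc8a1 probe set, X68812_s_at, read 779, 1060.25 and 1805 as the lowest, median and highest old values. The young arrays read 1359.5, 438, 1551, 1491 and 1457, with replicate 2 far below the others. Its difference was -0.08 ± 0.38 (SE), and -0.43 ± 0.32 (SE) without young replicate 2. U04934_s_at read 96.1, 259.5 and 701 in old and 166.5, 463, 291.5, 423 and 202 in young, with old arrays at both ends. Its difference was -0.23 ± 0.55 (SE). Neither passed, and the 95% interval of the first, -0.87 to 0.71, covers a change in either direction.

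The other 2 Slc8a1 probe sets were below the filter. U04937_s_at ranged from 16.2 to 402 in old and from 31.7 to 145 in young, with 3 arrays at or under the floor. X68191_at ranged from 8.3 to 200.1 in old and from 15.3 to 131 in young, with 4 arrays there. Their log2 means differed by 0.29 and 0.18, with no test. Over the 10 pairs of Slc8a1 probe sets r ran from -0.60 to 0.50, with 6 above 0 and 0 past an adjusted p of 0.05 by permutation. The difference of S67769_s_at from X68812_s_at was 0.89 higher in old (exact two-sided permutation p = 0.152, adjusted p = 0.273), which did not pass.

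**Figure D5:**
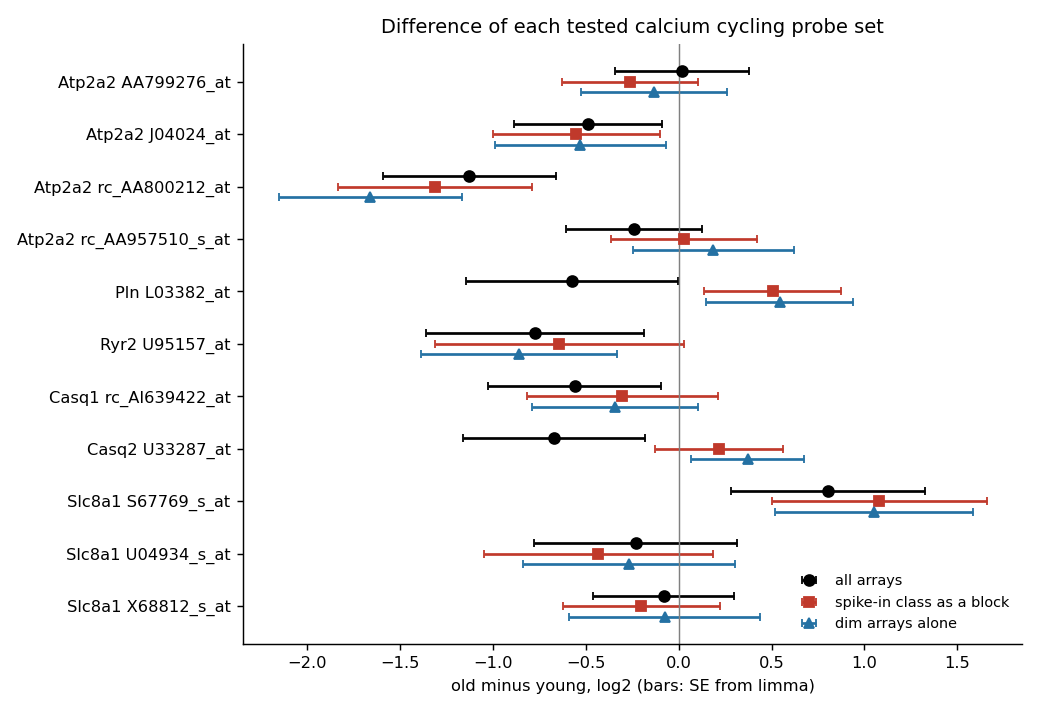
Log2 difference of old minus young for the 11 tested member probe sets, with the SE from limma, over all arrays (black circles), with the class as a block (red squares) and in the dim arrays alone (blue triangles). Pln and Casq2 lie at -0.57 and -0.67 over all arrays and above 0 in the other fits. AA799276_at and rc_AA957510_s_at of Atp2a2 also change side. The other probe sets, among them rc_AA800212_at of Atp2a2 and S67769_s_at of Slc8a1, keep their side of 0 in all 3 fits.

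Other genes of cardiac calcium handling were read from a list of 61, of which 44 had a probe set with 1 symbol and 36 were tested. None passed in either direction. Of the 36, 13 were higher and 23 lower in old, with a median log2 difference of -0.15. Over all 3206 genes tested, 1613 were lower and the median was -0.01. In limma 3 of the 36 had an unadjusted p under 0.05, where 6.86% of all genes tested did. With the class as a block, 7 of the 36 differences turned direction, to 16 higher and 20 lower. Among the pumps and their regulators, Calr (D78308_at), a calcium-binding chaperone of the reticulum, differed by -0.57 ± 0.27 (SE), and S100a1 (U26356mRNA_s_at), a calcium sensor that stimulates the pump and the release channel, by -0.82 ± 0.39. For both probe sets, 6 of 6 old arrays were under the young mean, though old and young arrays overlapped. The adjusted p in limma was 0.661 and 0.66. S100a1 had 4 probe sets, and the others did not all differ alike. Their medians in old and young were 407.7 and 406 for rc_AI228548_at, 642 and 863 for rc_AI228548_g_at, and 863.5 and 1031 for S68809_s_at. Atp2a3, another pump of the family, differed by -0.31 ± 0.45.

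Among the proteins around the release channel, Jph2, which ties the reticulum to the cell membrane, differed by -0.44 ± 0.31 (SE). For Jph2, 6 of 6 old arrays lay below the young mean, though old and young arrays overlapped. Fkbp1a, which binds the channel, differed by -0.38 ± 0.38, Asph, whose locus also encodes junctin, by -0.39 ± 0.47, and Sri, the calcium-binding sorcin, by -0.15 ± 0.77. With the class as a block these were -0.11, -0.10 and 0.73. Fkbp1b, the partner of the cardiac channel, was below the filter, at 7.9 to 179.6 in old and 14.7 to 268.5 in young. Itpr1, the other kind of release channel, differed by 0.98 ± 0.64, the most positive difference on the list, and did not pass. This was the only probe set of Itpr1 above the filter among 5.

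Among enzymes that set phosphorylation of phospholamban or the channel, Ppp1ca, a catalytic subunit of protein phosphatase 1, had the largest difference, -1.11 ± 0.45 (SE, unadjusted p = 0.0235, adjusted p = 0.567 in limma). Its young arrays lay close together at 1956 to 2441 and its old arrays ranged from 343 to 2523, and the difference was -0.53 ± 0.43 with the class as a block. The other catalytic subunits, Ppp1cb and Ppp1cc, differed the other way, by 0.54 ± 0.44 and 0.49 ± 0.39. Prkaca, a catalytic subunit of protein kinase A, differed by -0.48 ± 0.51, and Prkacb, another, by 0.29 ± 0.62. Camk2d, the main cardiac calmodulin kinase, differed by 0.035 ± 0.43. At the cell membrane, Cacna1c, the pore of the L-type calcium channel, differed by -0.14 ± 0.37 and the exchanger Slc8a2 by -0.74 ± 0.54. Cacna1d, another L-type pore, and the pump Atp2b4 differed by 0.53 ± 0.58 and 0.66 ± 0.69. With the class as a block Cacna1c turned to 0.019 and Atp2b4 to -0.13.

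Finally, the genes whose pattern over the 11 arrays was most like each member were taken by Pearson's r, as a description with no test. Those most like Pln were Tra2b (r = 0.97), Pdha1 (0.97) and Casq2, and those most like Casq2 were Arf1 (0.98), Aldh6a1 (0.97) and Pdha1 (0.97). For each of these the bright arrays were separate from the dim ones, so each r includes the difference between the classes. For AA799276_at of Atp2a2 they were Plcb2 (r = 0.91), Epn2 (0.90) and Shox2 (0.90). Ryr2 was most like Nfib (r = 0.89), Klc1 (0.89) and Thra (0.87). Casq1 was most like Col1a1 (r = 0.93), Polr2f (0.90) and Prpf3 (0.89), and X68812_s_at of Slc8a1 was most like Hspe1 (0.90), Ndufb8 (0.88) and Churc1 (0.88).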

How the data were processed

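The authors deposited 1 linear intensity per probe set for each of 11 arrays, and the software behind it is not given in the sources used here. After trimming 2% at both ends, each array's mean lay between 500.47 and 500.96, so the deposited scaling was kept. Values under 47.4, the 20th percentile over all arrays, were set to it as a floor, and log2 was taken, which understates changes of dim probe sets. The 59 control probe sets and those with a mean log2 value under the 40th percentile, 7.00, were left out. The test of old against young was that of limma 3.58.1 in R 4.3.3 (lmFit, eBayes with a trend, Benjamini-Hochberg adjustment over 5244 probe sets, threshold 0.05). The code was tested on simulated data. Ratios and pairs of probe sets were compared by exact two-sided permutation of the arrays, and correlations by 100000 permutations over 11 arrays and exactly over 6. Symbols came from GEO's platform annotation, and all 13 member probe sets matched the RefSeq table by gene number with 0 symbols changed. The members, the lists and the split by spike-in level were chosen with earlier results of these data known. Named were all member probe sets, of the partner list the 5 genes with the smallest p in each direction plus a fixed set where measured, and the 3 genes most like each member. Marker lists other than the ventricular, atrial and skeletal ones are given in the closing section. Alternatives covered the floor, scaling, filter, trend, array weights, blocks and leaving out arrays.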

Additional observations from a re-analysis of the deposited data

Results flagged for a closer look

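In the young group, Ryr2 (U95157_at) read 10.19 on the log2 scale in young replicate 3, far from the other young arrays at 8.43 to 8.91. Slc8a1 (X68812_s_at) read 8.78 in young replicate 2, far below the other young arrays at 10.41 to 10.60. Each was singled out because its gap to the nearest array took up most of the range of its group. These were 2 of 34 groups examined. The rule is set to flag about 1 in 20 by chance, a rate that was not measured in these data, and the groups share the same arrays. Without these arrays the differences between old and young were -0.46 for Ryr2 and -0.43 for Slc8a1, against -0.77 and -0.08 with them.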

How the results depend on the processing

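No member probe set passed under any alternative with a test, nor did a partner gene under those run for the list, and the number of arrays limits what could be found. The difference of AA799276_at of Atp2a2 turned to -0.25 with quantile normalization, -0.10 with median centring, -0.26 in the fit blocked by spike-in class, -0.13 in dim arrays, -0.48 in bright arrays and -0.063 without the arrays of high GAPDH ratio, and ran from -0.19 to 0.18 leaving out each array in turn. With the class as a block and in dim arrays, rc_AA957510_s_at turned to 0.029 and 0.19, Pln to 0.51 and 0.54, and Casq2 to 0.22 and 0.37, and in bright arrays Pln turned to 0.44. The replicate block turned U04934_s_at to 0.038 and X68812_s_at to 0.015, array weights turned U04934_s_at to 0.081, and leaving out each array gave -0.54 to 0.038 and -0.43 to 0.026, with the highest values without old replicate 6 and young replicate 3. The ratio of Atp2a2 to Pln turned to -0.77 with the class as a block, -0.68 in dim arrays, -0.92 in bright arrays, -0.043 without the arrays of high GAPDH ratio and -0.55 with rc_AA800212_at, and ran from 0.14 to 1.20 leaving out each array. Its permutation p ran from 0.252 to 0.984 over 23 alternatives, and with the replicate block the ratio differed by 0.67 (exact sign-flip p = 0.625). Deviations of same-numbered arrays from their group means had r from -0.25 to 0.25. This cannot decide whether the numbers pair the arrays, because differences between whole arrays enter these r values. Over all arrays 0 of 16 pairs of probe sets of 1 gene passed the threshold. Within the dim arrays 1 did by r and not by rho, the opposed Atp2a2 pair, with Pln and Casq2 in the adjustment. Without old replicate 5, 2 of all probe sets passed, and in dim arrays 1, none of them a member. The cause of these turns was not tested. Median centring moved the median of all probe sets by -0.12.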

Other observations

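Calreticulin had a further probe set, X53363cds_s_at, chosen here after its values were seen. It read 85.7 to 424 in old and 366 to 898 in young, a log2 difference of -1.70 ± 0.51 (SE, unadjusted p = 0.00368, adjusted p = 0.537 in limma), while the probe set D78308_g_at differed by -0.06 ± 0.36. The groups overlapped for all 3 Calr probe sets.

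The summed intensity of the other marker lists was as follows, in old and then in young. It was 8117 to 27139 and 9603 to 17989 for smooth muscle, 35367 to 89672 and 46719 to 93285 for fibroblasts and matrix, and 408.5 to 1905.5 and 1709 to 2147.5 for endothelium. It was 10958 to 19515 and 10679.8 to 37074 for fat cells, 11986 to 49879 and 12801 to 17327 for macrophages and leukocytes, 14308.5 to 178214 and 2612 to 73796 for blood, and 309.5 to 893 and 285 to 736.5 for nerve and glia. The groups overlapped for each list, no listed probe set passed, and the part of these lists in the results was not tested.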
